A study of Mus musculus with 4 samples.

Results

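*Gadd45g* (ENSMUSG00000021453), the growth arrest and DNA damage-inducible gene gamma, was examined in 46C mESCs, a mouse ESC line, after 24 h with or without Go6983, a selective inhibitor of PKC. The gene was taken by its ID from the authors' deposited table of genes changed by Go6983 and is 1 of the 1577 genes listed there. It was chosen because of its response in this same comparison, so its levels are given as a description, with no test. Total RNA was sequenced from 2 samples in control medium (NT) and 2 samples treated with 5 μM Go6983. All 4 samples came from the same cell line grown in serum-containing medium, with no genetic change between the groups. The labels give neither a vehicle for the NT samples nor the presence of LIF. They do not say whether the 2 samples of a group were separate cultures, so p-values measure only the spread between these samples, which may be technical.

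Gadd45 proteins are small acidic nuclear proteins with no known catalytic activity that act by binding other proteins. The family consists of Gadd45a, Gadd45b and Gadd45g, which are induced by stress and by cytokines, bind and activate the kinase Map3k4 upstream of p38 and JNK, and inhibit the Cdk1 and cyclin B1 complex of the G2/M transition. They have also been linked to active DNA demethylation. In the mouse embryo *Gadd45g* is expressed in neuronal precursors, in the setting of proneural factors and Notch ligands, and it is required for testis determination.

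*Gadd45g* lies on the plus strand of chromosome 13, at chr13:51846678-51848468 in GENCODE M21 on GRCm38. Its coding transcript has 4 exons and a spliced length of 1071 bases, of which 477 bases code for the protein before the stop codon, and a second annotated transcript of 3 exons retains an intron. No other annotated gene overlaps it. No antisense gene shares its interval in this annotation, but how the authors' reads were assigned there was not examined. The build used by the authors was mm9, and the deposited table holds no coordinates.

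The promoter of *Gadd45g* is printed to show the region before the start site of the gene whose RNA was lower, beside those of *Rnf26* and *Tnfsf11*, the genes whose log2 values, taken relative to their own NT mean, were nearest to its own over the 4 samples. Each sequence is the 250 bases before the RefSeq start site on GRCm38.p6, written 5′ to 3′ on the strand of the gene, and the capitals mark matches to the motifs named afterwards. The windows are chr13:51846425-51846674 on the plus strand for *Gadd45g*, chr9:44113052-44113301 on the minus strand for *Rnf26* and chr14:78308044-78308293 on the minus strand for *Tnfsf11*. The *Rnf26* window lies inside the gene as annotated in GENCODE M21, chr9:44095631-44113517, so RefSeq and GENCODE place its start differently.
Gadd45g: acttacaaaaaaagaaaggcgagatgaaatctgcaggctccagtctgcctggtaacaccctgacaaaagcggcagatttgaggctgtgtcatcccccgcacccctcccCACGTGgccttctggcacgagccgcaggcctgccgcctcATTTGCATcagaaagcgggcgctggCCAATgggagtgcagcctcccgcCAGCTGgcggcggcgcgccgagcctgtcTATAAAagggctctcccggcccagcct
Rnf26: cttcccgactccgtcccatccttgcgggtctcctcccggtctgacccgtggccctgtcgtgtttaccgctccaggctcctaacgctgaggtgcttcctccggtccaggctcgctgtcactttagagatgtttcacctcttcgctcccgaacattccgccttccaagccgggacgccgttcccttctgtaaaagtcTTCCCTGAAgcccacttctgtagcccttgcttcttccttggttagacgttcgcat
Tnfsf11: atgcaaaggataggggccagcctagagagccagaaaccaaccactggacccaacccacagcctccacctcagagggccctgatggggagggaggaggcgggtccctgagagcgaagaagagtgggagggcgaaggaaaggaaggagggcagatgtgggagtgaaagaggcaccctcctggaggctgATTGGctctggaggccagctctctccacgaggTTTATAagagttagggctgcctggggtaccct

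The windows were searched on both strands for 11 motifs, chosen with the *Gadd45g* sequence already in view, and 5 of them were found before *Gadd45g*. A TATA box (TATAAA) began 27 bases before the start site and is held by 12.4% of the 32817 promoter windows of the same length. The proneural-type E-box CAGCTG began 55 bases before it and is held by 13.0% of them. A CCAAT box (CCAAT) began 78 bases before it and is held by 33.8%. The octamer ATTTGCAT, the sequence read by POU factors, began 103 bases before it and is held by 1.60%. The E-box CACGTG began 142 bases before the start site and is held by 6.02%. No match overlapped another. The motifs not found in this window were AP-1 (TGAGTCA, held by 4.46%), the CRE (TGACGTCA, 1.55%), the GC box (GGGCGG, 32.7%), TCF/LEF (CTTTGAT, 3.21%), RBPJ (TGGGAA, 21.6%) and STAT (TTCNNNGAA, 7.01%). *Rnf26* held only the STAT letters. *Tnfsf11* held the TATA letters 32 and the CCAAT letters 64 bases before the start site, both on the strand opposite to the gene. Those of *Gadd45g* lay on the strand of the gene. In the same windows *Gadd45a* held the octamer at both 97 and 70 bases before its start site, the latter on the opposite strand. *Gadd45b* did not hold it but held a TATA box, beginning 46 bases before. A promoter entry matched 6 of the 7 symbols looked up. A match to these letters describes the sequence and is not a measured site of binding.

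In NT cells *Gadd45g* had 1707 and 1668 normalized counts, from 1716 and 1632 reads, and with Go6983 it had 160 and 155, from 171 and 145 reads. Both Go6983 samples lay far below both NT samples, and within each group the samples were close to each other. A normalized count here is the number of reads divided by a size factor of the sample, set by the authors. The mean ± SD was 1687 ± 27.6 in NT cells (n = 2) and 157 ± 3.13 after Go6983 (n = 2). The treated mean was 9.33% of the NT mean, and the log2 difference of Go6983 minus NT was -3.41 on the log2(normalized count + 1) scale. Taking each Go6983 sample against each NT sample, the log2 difference over the 4 pairs ran from -3.45 to -3.38.

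**Figure D1:**
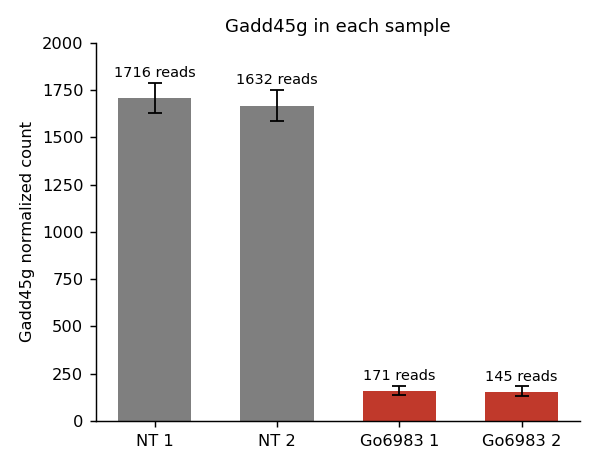
Normalized count of *Gadd45g* (y axis, linear, from 0) for NT 1 and NT 2 (grey) and for Go6983 1 and 2 (red), with the reads behind each bar. Error bars are exact 95% Poisson intervals of the reads and cover counting error only, and the Go6983 samples at 160 and 155 sit below the NT samples at 1707 and 1668.

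Depth was not the limit on this gene. The exact 95% Poisson intervals were 1627 to 1789 and 1588 to 1751 normalized counts in the NT samples, and 137 to 185 and 131 to 183 in the Go6983 samples. They cover counting error only. The intervals overlapped within each group and not between groups. In the order NT 1, NT 2, Go6983 1, Go6983 2, the neighbours within a group therefore did not differ beyond their counting error. The replicates were 0.033 apart on the log2 scale in NT cells, and 0.040 after Go6983, while counting error alone gives a gap with an SD of 0.050 and 0.16. Of the 101 other listed genes within 2-fold of its NT level, 11 had a smaller gap between the NT samples, and the median gap was 0.12. Of the 403 within 2-fold of its Go6983 level, 41 had a smaller gap between the Go6983 samples, and the median was 0.22.

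Per length, *Gadd45g* was among the more abundant of the listed genes in NT cells and less so after Go6983. Divided by the exon length in GENCODE M21, its level was 1438 normalized counts per kb with no inhibitor and 134 with it. In the order of this level it stood at place 41 in NT cells and at place 254 after Go6983, among the 1572 listed genes with a length. These places are within a table of genes already selected as changed and not within the genome.

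In the order of the log2 difference *Gadd45g* held place 35 of the 1577 listed genes. Most genes above it had few reads: of the 34, 26 had an NT mean under 50 normalized counts and 27 were at 0 in at least 1 Go6983 sample. Next to it in this order were *Cbln4*, with 26, 15, 3 and 0 reads in NT 1, NT 2, Go6983 1 and Go6983 2, and *Trpc4* and *Gm45875*, each with 13, 7, 0 and 0 reads. The same held for *Lypd6b* (26, 40, 9 and 0 reads), *Gm40663* (26, 23, 5 and 0) and *Cdh19* (19, 30, 5 and 0). The difference of *Gadd45g* thus rested on far more reads than that of the 6 genes around it.

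Few of the more abundant listed genes fell as much. In the 1044 genes whose higher group averaged 50 normalized counts or more *Gadd45g* held place 9, counted from the most negative difference. That minimum lies far under its NT mean of 1687, and rises larger in size were not counted. Among the 95 genes with an NT mean at least as high as its own, it included, only *Pou3f1* and *Rnf26* had a more negative difference. *Pou3f1*, the POU factor gene for Oct6, had 5877 and 4849 normalized counts in NT cells against 457 and 299.7 after Go6983. Every listed gene had been selected by the authors, with a p of at most 0.05 and a 2-fold or larger change, so these places describe the selected genes only. The median log2 difference of all listed genes was 1.21, and 478 of the 1577 were lower with Go6983 by sign.

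**Figure D2:**
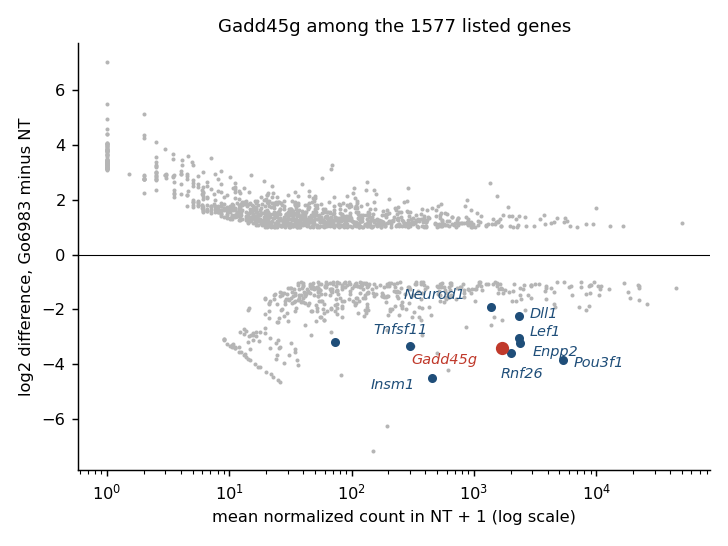
Log2 difference of Go6983 minus NT (y axis) against the mean normalized count in NT cells plus 1 (x axis, log scale) for the 1577 listed genes (grey). *Gadd45g* (red) sits at -3.41, with *Rnf26* and *Pou3f1* below it to the right, and blue points mark these, the other genes of most like pattern and *Insm1*, *Dll1* and *Neurod1*; the empty band around 0 is the authors' selection.

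The genes whose pattern over the 4 samples was most like that of *Gadd45g* were found by the Euclidean distance between log2 values, each gene centred on its NT mean, among the 1043 other genes that passed the same minimum of 50. The 5 nearest were *Rnf26*, *Tnfsf11*, ENSMUSG00000091744, which has no name in the annotation used, *Lef1* and *Enpp2*, at distances from 0.31 to 0.58. The median distance was 6.45 over all 1043 genes and 2.96 over the 326 of them that were lower with Go6983. A distance over 4 samples in 2 groups reflects mainly the size of the difference, so nearness says little beyond that.

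*Rnf26*, which encodes a membrane-bound RING ubiquitin ligase, had 2068 and 1949 normalized counts in NT cells against 154 and 177 after Go6983. These levels were near those of *Gadd45g* in both groups, and the log2 difference was -3.60. *Tnfsf11*, the gene of the cytokine RANKL, had 311 and 281 in NT cells against 24.3 and 32.1 after Go6983, a log2 difference of -3.36. It differed by about as much as *Gadd45g* from a lower level. ENSMUSG00000091744 had 72.6 and 72.5 in NT cells against 6.53 and 7.49 after Go6983. *Lef1*, a transcription factor of Wnt signaling, had 2450 and 2199 in NT cells against 282 and 280.4 after Go6983. *Enpp2*, the gene of autotaxin, which makes lysophosphatidic acid, had 2440 and 2320 in NT cells against 330.5 and 193 after Go6983, the widest gap between treated samples among the 5. All 5 were lower with Go6983, which their choice by nearness to *Gadd45g* in these same samples fixes, so no test is given for them here. *Lef1* and *Enpp2* were no longer among the 5 nearest without Go6983 replicate 2, when *Pou3f1* and *Grm6* took their places.

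**Figure D3:**
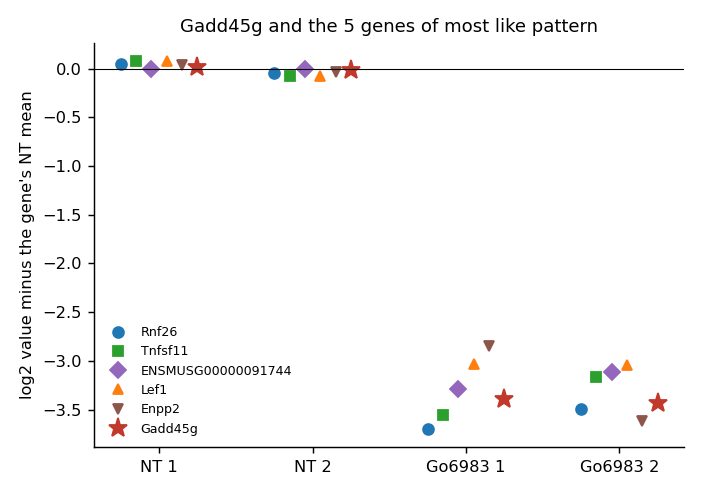
Log2 value minus the NT mean of the same gene (y axis) in each of the 4 samples (x axis) for *Gadd45g* (red star) and the 5 genes of most like pattern. All 6 sit near 0 in the NT samples, and their differences in group means run from -3.04 for *Lef1* to -3.60 for *Rnf26*.

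Genes tied to *Gadd45g* by its known roles were taken from 14 lists, which were chosen with earlier results of these data known. A gene was called higher or lower at a limma adjusted p below 0.05 over the 1577 listed genes, and 98.5% of all listed genes passed this call, 29.7% lower and 68.8% higher. Passing is therefore no result about a member, and only the direction and size are of use. Of the 331 symbols in the lists, 34 besides *Gadd45g* were in the table. Of these 20 fell and 14 rose, and their median log2 difference was -1.14, beside 1.21 over all listed genes. Without NT replicate 1 or Go6983 replicate 2 the number still called lower was 13 and 12, and without Go6983 replicate 1 the number still called higher was 9. The members that lost their call kept their direction. In all 34 the groups did not overlap, which is no different from the table as a whole, where this held for 99.7% of the 1577 listed genes (30.1% lower and 69.6% higher). Members without a value in the table were not analysed here.

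The closest relatives and binding partners of *Gadd45g* gave no values. The other family genes, *Gadd45a* and *Gadd45b*, and *Gadd45gip1*, whose product binds Gadd45 proteins, were not in the table, nor were any of the 12 partners and effectors, *Map3k4*, *Cdk1*, *Ccnb1*, *Pcna* and *Cdkn1a* among them. None of the 34 genes of the p38 and JNK cascade was listed either. These genes were not analysed here, and their absence from a table of selected genes gives no level for them.

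The proneural and Notch list covers the setting in which *Gadd45g* is expressed in the embryonic nervous system. It was the longest list and had the most members in the table. Of its 46 genes 8 were listed, of which 7 fell and 1 rose, a share of 87.5% lower beside 29.7% of all listed genes. The median log2 difference of the 8 was -2.12, beside 1.21 over all listed genes. The list was chosen with earlier results of these data known, so its share and median are a description and no test. *Insm1*, a zinc finger factor of neuroendocrine and neuronal precursors, had 525 and 387 normalized counts in NT cells against 29.9 and 11.8 after Go6983. Its log2 difference of -4.51 (limma adjusted p = 0.000488) was more negative than that of *Gadd45g*, from a lower count, and leaving out Go6983 replicate 1 or Go6983 replicate 2 put it at -5.14 or -3.87. *Neurod1*, a basic helix-loop-helix factor of neuronal differentiation, had 1459 and 1270 in NT cells against 405 and 325 after Go6983, a log2 difference of -1.90 (limma adjusted p = 0.000428). It was close to *Gadd45g* in NT count but kept more of it after treatment.

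The listed Notch ligand genes were all lower. *Dll1*, the ligand expressed by neuronal precursors, had 2401 and 2244 normalized counts in NT cells against 611 and 394 after Go6983, a log2 difference of -2.24 (limma adjusted p = 0.000484). *Dll4*, better known from blood vessels, had 37.8 and 43.9 in NT cells against 8.40 and 4.28 after Go6983. *Dll3*, a divergent family member, had 401 and 379 in NT cells against 142 and 222 after Go6983, the smallest difference of the 7. The adjusted p of *Dll4* was 0.00302 in limma, and 0.0541 without Go6983 replicate 2. That of *Dll3* was 0.00608, and 0.0725 without NT replicate 1 and 0.0646 without NT replicate 2.

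The other members had few reads. *Neurog3*, the proneural factor of endocrine progenitors, had 35.8 and 26.6 normalized counts in NT cells against 4.67 and 1.07 after Go6983. *Atoh1*, a proneural factor of hair cells and granule neurons, had 23.9 and 27.6 in NT cells against 7.47 and 4.28 after Go6983. *Cbfa2t3*, a corepressor of the ETO family, was the member that rose, from 41.8 and 38.8 to 133 and 106. The calls of these genes depended on single libraries in limma, with an adjusted p of 0.0502 for *Neurog3* without NT replicate 1, 0.0610 for *Atoh1* without Go6983 replicate 2 and 0.0636 for *Cbfa2t3* without Go6983 replicate 1. The rule for named genes took *Dll1*, *Neurod1*, *Insm1* and *Cbfa2t3*, and the other 4 were named after their values were seen. Whether the lower levels come from fewer cells that express these genes or from less RNA per cell cannot be told apart in bulk samples, which holds for *Gadd45g* too.

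**Figure D4:**
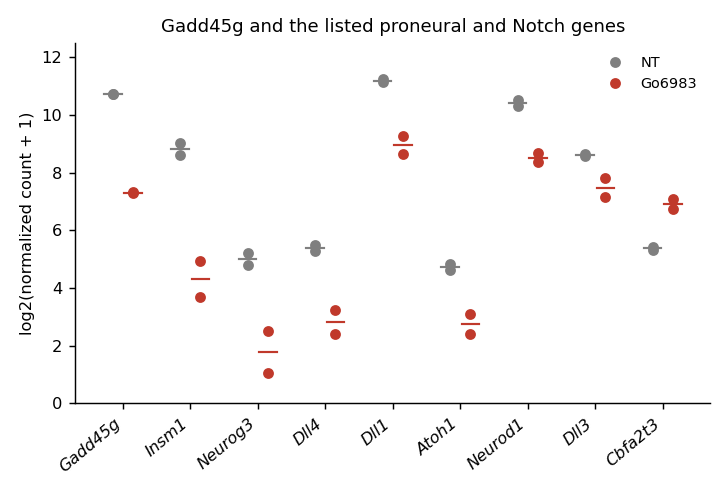
Expression as log2(normalized count + 1) (y axis) of *Gadd45g* and the 8 listed proneural and Notch genes with NT in grey and Go6983 in red, points for the 2 samples of each group and lines for their mean. The Go6983 samples sit below the NT samples for all but *Cbfa2t3*, whose log2 difference is 1.54.

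Few genes of growth arrest and the cell cycle were listed. Of 43 growth arrest and DNA damage response genes, *Trp73* alone was in the table, a relative of the tumor suppressor gene *Trp53*. It had 2254 and 1974 normalized counts in NT cells against 1016 and 964 after Go6983, a log2 difference of -1.09 (limma adjusted p = 0.000499). Of 34 cyclins, CDK inhibitors and G2/M regulators, *Cdkn1c*, which encodes the CDK inhibitor p57, fell from 3922 and 3834 to 1462 and 1090. *Cdkn2d*, which encodes the CDK4 and CDK6 inhibitor p19, rose from 142 and 169 to 448 and 549. The log2 differences of these 3 genes ran from -1.62 to 1.67, all smaller in size than that of *Gadd45g*.

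Among genes of active DNA demethylation, a process in which Gadd45 proteins have been proposed as adaptors, *Tet2* rose. *Tet2*, which encodes an oxidase of 5mC, had 10783 and 5608 normalized counts in NT cells against 17023 and 16422 after Go6983, and its NT samples lay far apart. Its log2 difference of 1.10 became -0.018 when the libraries were scaled by the median ratio of the listed genes. The limma adjusted p of *Tet2* was 0.0137, and 0.186 without Go6983 replicate 1 and 0.177 without Go6983 replicate 2.

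Of the two-cell-like list, a state of mESCs in which *Gadd45* genes have been studied, 3 of 33 genes were listed and all 3 fell. Of all listed genes 29.7% were called lower. *Zscan4a*, annotated as a pseudogene in GENCODE M21, had 180 and 116 normalized counts in NT cells against 43.9 and 66.4 after Go6983, and *Zscan4d* 91.5 and 122 against 39.2 and 66.4. Members of the *Zscan4* cluster are near-identical copies, so how reads were shared among them is uncertain. *Zscan4a* and *Zscan4d* may therefore not count as separate genes. The calls were not stable, with limma adjusted p-values between 0.0714 and 0.185 for *Zscan4d* without any 1 of the 4 libraries, and 0.0839, 0.113 and 0.0726 for *Zscan4a* without NT replicate 1, Go6983 replicate 1 and Go6983 replicate 2. *Pramef25*, a PRAME family gene, had 26.9 and 21.5 in NT cells against 2.80 and 4.28 after Go6983.

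The cytokine and signaling lists were split in direction. *Gadd45g* is itself an early gene of cytokine signaling. Of 24 cytokine-inducible genes 1 fell and 2 rose, beside 29.7% lower and 68.8% higher of all listed genes. *Pim2*, a serine/threonine kinase gene, fell from 8383 and 8063 to 2164 and 1829 normalized counts. *Bcl6*, a transcriptional repressor gene, rose from 202 and 185 to 585 and 621, and *Il6ra*, a subunit of the interleukin-6 receptor, from 131 and 84.8 to 357 and 378. The limma adjusted p of *Il6ra* was 0.00122, and 0.0587 without Go6983 replicate 1 and 0.0655 without Go6983 replicate 2. Of 21 genes of the NF-kB pathway *Tnfsf11* fell, as given above, and *Rel*, a subunit gene, rose from 185 and 161 to 363 and 444.

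*Gadd45g* acts through *Map3k4* in testis determination, and of 13 genes of that cascade *Wt1* and *Insr* were listed. *Wt1*, a zinc finger factor gene, had 443 and 185 normalized counts in NT cells against 30.8 and 24.6 after Go6983, a log2 difference of -3.33 with widely spaced NT samples. Without NT replicate 1 the difference was -2.70 and without NT replicate 2 it was -3.96. Its limma adjusted p was 0.00114, and 0.0601 without Go6983 replicate 1 and 0.0709 without Go6983 replicate 2. *Insr*, the insulin receptor gene, rose from 765 and 639 to 1377 and 1799. Of 15 genes of PKC and related kinases, the family that Go6983 inhibits, *Prkch* fell from 235 and 234 to 106 and 80.3, and *Prkcq* rose from 10.9 and 6.13 to 25.2 and 28.9. The limma adjusted p of *Prkcq* was 0.0133, and 0.0590, 0.0894 and 0.104 without NT replicate 2, Go6983 replicate 1 and Go6983 replicate 2.

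Around *Gadd45g* on chromosome 13, 26 annotated genes have their lowest coordinate within 1 Mb of its own, 10 of them protein-coding, and only 1 was in the table. *BB123696*, a long intergenic noncoding RNA gene at chr13:52729615-52757205 on the minus strand, had 16.9 and 23.5 normalized counts in NT cells against 3.73 and 4.28 after Go6983. Its log2 difference was -2.07 (limma adjusted p = 0.00433). The nearest gene of the window that codes for a protein is *Sema4d*, on the minus strand, with its 5′ end 52931 bases before *Gadd45g*. Neither it nor the other 9 protein-coding genes had a value in the table, and they were not analysed here.

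**Figure D5:**
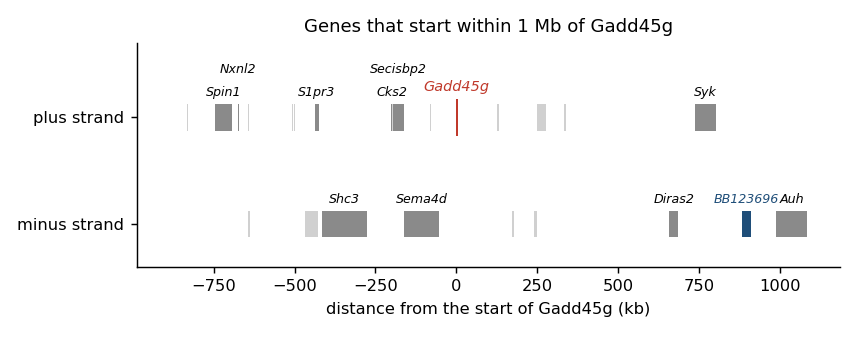
Genes whose lowest coordinate lies within 1 Mb of that of *Gadd45g* (red), by distance in kb (x axis) and strand (y axis). Dark grey marks protein-coding genes, light grey other genes and blue *BB123696*, the only neighbour in the table; genes shorter than 4 kb are drawn 4 kb wide.

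Few marker genes of the cell state were listed, and each listed gene had been selected by the authors as changed. Of all listed genes 68.8% were called higher and 29.7% lower, and markers without a value were not analysed here. Of 16 markers of pluripotent cells 5 were listed, of which *Nanog*, *Tfcp2l1*, *Tbx3* and *Klf4* rose and *Utf1* fell. Their summed level was 64797 and 65543 normalized counts in NT cells against 109303 and 113505 after Go6983. Under the median-ratio scaling *Nanog* and *Klf4* turned to log2 differences of -0.063 and -0.11. With that scaling *Tbx3* was at 0.0085, *Tfcp2l1* at 0.58 and *Utf1* at -2.27. The defining genes *Pou5f1* and *Sox2* were not in the table, so the labelled cell type was checked only through these 5. Of 28 markers of endoderm, mesendoderm, neural, trophoblast and fibroblast cells 4 were listed, *Tfap2c* and *Col1a2*, which rose, and *Kdr* and *Pax6*, which fell. Their summed level was 1710 and 1584 in NT cells against 3506 and 3849 after Go6983. Most of it came from *Tfap2c*, at 1486, 1364, 3326 and 3708 in NT 1, NT 2, Go6983 1 and Go6983 2. The sum therefore describes *Tfap2c* and not the list. In the same order *Kdr* had 113, 121, 74.7 and 35.3, and *Col1a2* had 31.8, 40.9, 78.4 and 82.4. Under the median-ratio scaling the log2 differences were 0.18 for *Tfap2c*, 0.033 for *Col1a2*, -2.27 for *Kdr* and -2.48 for *Pax6*. *Pax6*, a marker of neural cells, had 78.6 and 58.2 in NT cells against 27.1 and 23.5 after Go6983, and the neural markers *Sox1*, *Nes* and *Tubb3* were not in the table. Whether cells of these other types were present, or had a part in the level of *Gadd45g*, was not tested. The calls of *Col1a2*, *Pax6* and *Kdr* were lost in limma without single libraries, with adjusted p-values between 0.104 and 0.118 for *Col1a2*, between 0.0629 and 0.101 for *Pax6* and between 0.0922 and 0.174 for *Kdr*.

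Between 859777 and 1054236 reads per sample fell in the listed genes, which are part of each library. The total depth is unknown. Rescaling the libraries by the median ratio of the listed genes moved all differences by a median of -1.10 log2 and put that of *Gadd45g* at -4.53. By its construction this scaling centres the selected genes, so the size of the difference is read against the authors' size factors.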

How the data were processed

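RNA from 2 NT and 2 Go6983-treated samples of 46C mESCs was sequenced. The table deposited by the authors holds log2 values of the 4 samples and, for the comparison, their own group means, log2 fold changes, p-values and FDRs. Bowtie 0.12.2 and mm9 are named by the submitters' processing notes. What counted the reads, in which annotation and with which test, is not given in the sources used here, and the paper speaks of FPKM. In the deposited table the values, with the log2 and an added 1 undone, were whole multiples of 1 step per sample (100% within 0.05), as counts divided by size factors would be. These size factors were between 0.934 and 1.07. Go6983 and NT were compared with limma 3.58.1 in R 4.3.3 (lmFit, eBayes with trend, no filter, no block) on the deposited log2 values, with Benjamini-Hochberg adjustment over 1577 genes. The authors' means, fold changes and p-values were not used, other than to check that each listed gene had a p of 0.05 or less.

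Genes had been selected on these same samples, so the limma p-values, which rest on 2 residual and 3.63 prior degrees of freedom, may be too small. *Gadd45g*, the lists and the rules were chosen with earlier results of these data known. Named were *Gadd45g*, listed family members, the 5 genes of most like pattern, up to 4 members of each list with the smallest p, listed genes within 1 Mb and the 3 genes on either side in the order of differences. Of the listed genes, *Klf4*, *Pou3f1*, *Grm6*, *Dll3*, *Dll4*, *Neurog3* and *Atoh1* were named outside these rules. Symbols and coordinates came by gene ID from GENCODE M21 (1572 of 1577 matched) and promoters from RefSeq on GRCm38.p6. On counts simulated for the 1577 genes in this comparison, limma recovered 65.0% of 2-fold and 97.0% of 4-fold changes and called 0.654% of unchanged genes. Whether these rates hold for genes already selected on the same samples, as the listed genes were, was not tested. Replicates were not copies: chi-square per gene was 9.97 for the NT pair and 7.22 for the Go6983 pair. The alternatives were other pseudocounts, filters, scalings and fits and each replicate left out. Figures were drawn with matplotlib 3.10.9. One list member is not reported here.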

Additional observations from a re-analysis of the deposited data

How the results depend on the processing

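The log2 difference of *Gadd45g* stayed negative under each alternative run. It was -3.42 with a pseudocount of 0.1, -3.38 with a pseudocount of 5, -3.55 with each library scaled by its total over the listed genes, which moved the median difference of all genes by -0.13, and -4.53 with the median ratio, which by its construction centres the selected genes. With 1 replicate left out it ran from -3.43 to -3.39. Of the 5 genes of most like pattern, 3 were kept with no minimum count (*Lef1* and *Enpp2* left) and 3 with a pseudocount of 5 (*Enpp2* and ENSMUSG00000091744 left), and 3 to 4 with 1 replicate left out. With 1 replicate left out, the listed genes called lower numbered 260 to 315 and those called higher 431 to 858, against 469 and 1085. Past 1.5 times were 307, 288 and 260 lower without NT replicate 1, Go6983 replicate 1 and Go6983 replicate 2, and 461 and 431 higher without Go6983 replicate 1 and Go6983 replicate 2. In the same fits the list members numbered 12 to 16 lower and 9 to 14 higher. These fits have fewer samples, and a lone sample is assumed to vary like the others. With the other alternatives no count of called genes moved by more than 1.5 times. Scaling by the median ratio, chosen for the list members after seeing the data, changed the sign of 3 of 34, *Klf4* (-0.11), *Nanog* (-0.063) and *Tet2* (-0.018). It left only small rises for *Tbx3* (0.0085), *Col1a2* (0.033), *Insr* (0.048), *Rel* (0.093) and *Tfap2c* (0.18). Of 390 pairs of a named gene and one of the other alternatives, 34 lost their call, all with a replicate left out, and 0 changed direction. The labels do not say whether same-numbered samples were paired. Deviations of same-numbered samples correlated at 0.045, which cannot decide this with 2 samples per group. With the replicate block 466 genes were lower and 1070 higher and *Gadd45g* was at -3.41. The total depth of the libraries is unknown, which limits what can be said of genes outside the table.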
